A study of Arabidopsis thaliana with 36 samples.

Results

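Rosettes of Arabidopsis thaliana that had been out of the cold for 4 days (Deacc4) were compared with rosettes that had been out of the cold for 2 days (Deacc2). All 9 Deacc4 and all 9 Deacc2 libraries were taken by their labels, 18 of the 36 libraries of the series, with 3 libraries of each of the lines Col0, mbf1c and jub1 at each time and the line as a term of the model. Col0 is the wild type accession, and mbf1c and jub1 are lines named after MBF1C, a stress-related transcriptional coactivator, and JUB1, a transcription factor of the NAC family; no source used here gives the nature of their alleles. Every group had passed through the same cold: plants entered at an age of 28 days, spent 3 days at 4 °C under 90 µE m-2 s-1, and were then returned to 20 °C days of 16 h at 200 µE m-2 s-1. Deacc2 plants were therefore 33 days old at harvest and Deacc4 plants 35 days old, and time after the cold cannot be told apart from age. The other 18 libraries, taken before cold (NonA) and at the end of the cold (ACC), are used here only as reference levels. Replicates are numbered 1 to 3 in each group, as experiments (Exp) in the titles, without a word on what libraries of 1 number share, and nothing in the labels says how plants were pooled into them beyond 10 plants per pot, so the p-values given here may reflect technical spread only.

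Plants that meet low temperature for some days gain freezing tolerance, and lose it again when warmth returns, a process called deacclimation. In cold, CBF transcription factors bind C-repeat elements before COR genes, which encode dehydrins and other protective proteins, while growth, cell division and photosynthetic gene expression are held back and the circadian clock runs with a dampened rhythm. Return to warmth reverses much of this within the first hours and days, and the comparison asks what still moved in the transcriptome between the second and the fourth day.

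The answer across all genes was small. Of 19943 genes tested, 2 passed an adjusted p of 0.05 with a higher level at 4 days (0.01% of those tested) and none with a lower level (0%) by edgeR's quasi-likelihood test with Benjamini-Hochberg adjustment. At an unadjusted p under 0.05, 933 genes were higher (4.68%) and 843 lower (4.23%). DESeq2 called 88 genes higher (0.441% of 19939) and 56 lower (0.281%). The 2 genes that rose were RAP2.9 (AT4G06746), whose protein carries an AP2 DNA-binding domain and is also known as DEAR5, and GRP8 (AT4G39260), a glycine-rich RNA-binding protein whose transcript oscillates under the circadian clock and which is also known by a name that stands for cold, circadian rhythm and RNA binding.

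The 250 bases before the annotated gene starts of both are shown because these are the 2 genes that passed the test; they were read from RefSeq's TAIR10.1 assembly, 5′ to 3′ on the minus strand, the strand of both genes. The window of RAP2.9 is at chr4:4074736-4074985 and that of GRP8 at chr4:18275217-18275466 (TAIR10.1); capitals mark matches to the evening element (AAAATATCT), a motif of evening-phased clock targets, the G-box (CACGTG), or the core of the C-repeat (CCGAC), searched on both strands.
RAP2.9: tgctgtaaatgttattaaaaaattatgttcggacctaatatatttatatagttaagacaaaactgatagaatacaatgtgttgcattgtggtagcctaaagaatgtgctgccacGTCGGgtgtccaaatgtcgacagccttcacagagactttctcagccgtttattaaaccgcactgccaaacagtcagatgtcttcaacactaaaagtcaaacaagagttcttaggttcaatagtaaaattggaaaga
GRP8: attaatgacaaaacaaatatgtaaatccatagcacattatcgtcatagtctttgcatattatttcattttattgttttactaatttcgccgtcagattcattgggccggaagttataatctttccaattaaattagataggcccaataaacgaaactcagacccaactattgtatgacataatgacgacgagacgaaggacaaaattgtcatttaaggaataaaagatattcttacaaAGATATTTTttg
The window of GRP8 held 1 evening element on the opposite strand, its first base 12 bases before the gene start, and that of RAP2.9 held 1 C-repeat core on the opposite strand, 136 bases before the gene start. Neither match overlapped another, and neither window held a G-box. Of 27443 protein-coding promoters of the same length, 2.36% held the evening element, 11.97% the C-repeat core and 6.49% the G-box.

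RAP2.9 stood at 1.87, 1.94 and 1.85 CPM (counts scaled to library size, after TMM scaling) in the Col0 replicates at 2 days, and at 5.97, 4.97 and 4.27 CPM at 4 days. In mbf1c it stood at 1.75, 2.33 and 1.83 CPM at 2 days and at 2.78, 9.22 and 2.69 CPM at 4 days. In jub1 the values were 1.04, 1.37 and 1.59 CPM at 2 days against 4.09, 6.11 and 3.87 CPM at 4 days. Every library at 4 days was above every library at 2 days, with replicate 2 of mbf1c the highest of all. The fitted rise was 1.51 ± 0.22 on the log2 scale (SE, 9 libraries against 9, 95% interval 1.05 to 1.98, edgeR adjusted p = 0.0204), a fold of 2.85, and the lines gave 1.42 in Col0, 1.31 in mbf1c and 1.81 in jub1. Its mean was 3.77 CPM before cold and 5.31 CPM at the end of the cold, beside 1.73 CPM at 2 days and 4.89 CPM at 4 days, so the mean at 2 days was the lowest of the 4 stages.

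GRP8 stood at 246, 200.1 and 232 CPM in Col0 at 2 days and at 478, 361 and 394 CPM at 4 days. In mbf1c it was at 317, 212 and 197 CPM at 2 days and at 408, 492.8 and 344 CPM at 4 days. In jub1 the 2-day libraries held 212, 186 and 226 CPM and the 4-day libraries 381, 398 and 337 CPM. Again no library at 4 days was below any at 2 days. The rise was 0.83 ± 0.12 (log2, SE, 9 against 9, 95% interval 0.57 to 1.08, edgeR adjusted p = 0.0204), 1.77-fold, and 0.86, 0.78 and 0.84 in Col0, mbf1c and jub1. The mean was 285 CPM before cold, 120 CPM at the end of the cold, 225 CPM at 2 days and 399 CPM at 4 days. GRP8 oscillates and no source used here gives the hour of harvest, so another hour and another level cannot be told apart. GRP7, the close relative of GRP8 in the same clock-controlled feedback loop, did not pass (0.80 ± 0.20, edgeR adjusted p = 0.213), with 581 to 1975 CPM and a median of 1222 CPM at 2 days against 1654 to 2556 CPM and a median of 2050 CPM at 4 days; it is named here after its values were seen. GRP7 and GRP8 shared no stretch of 100 bases at 95% identity in the search for near-identical copies.

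**Figure D1:**
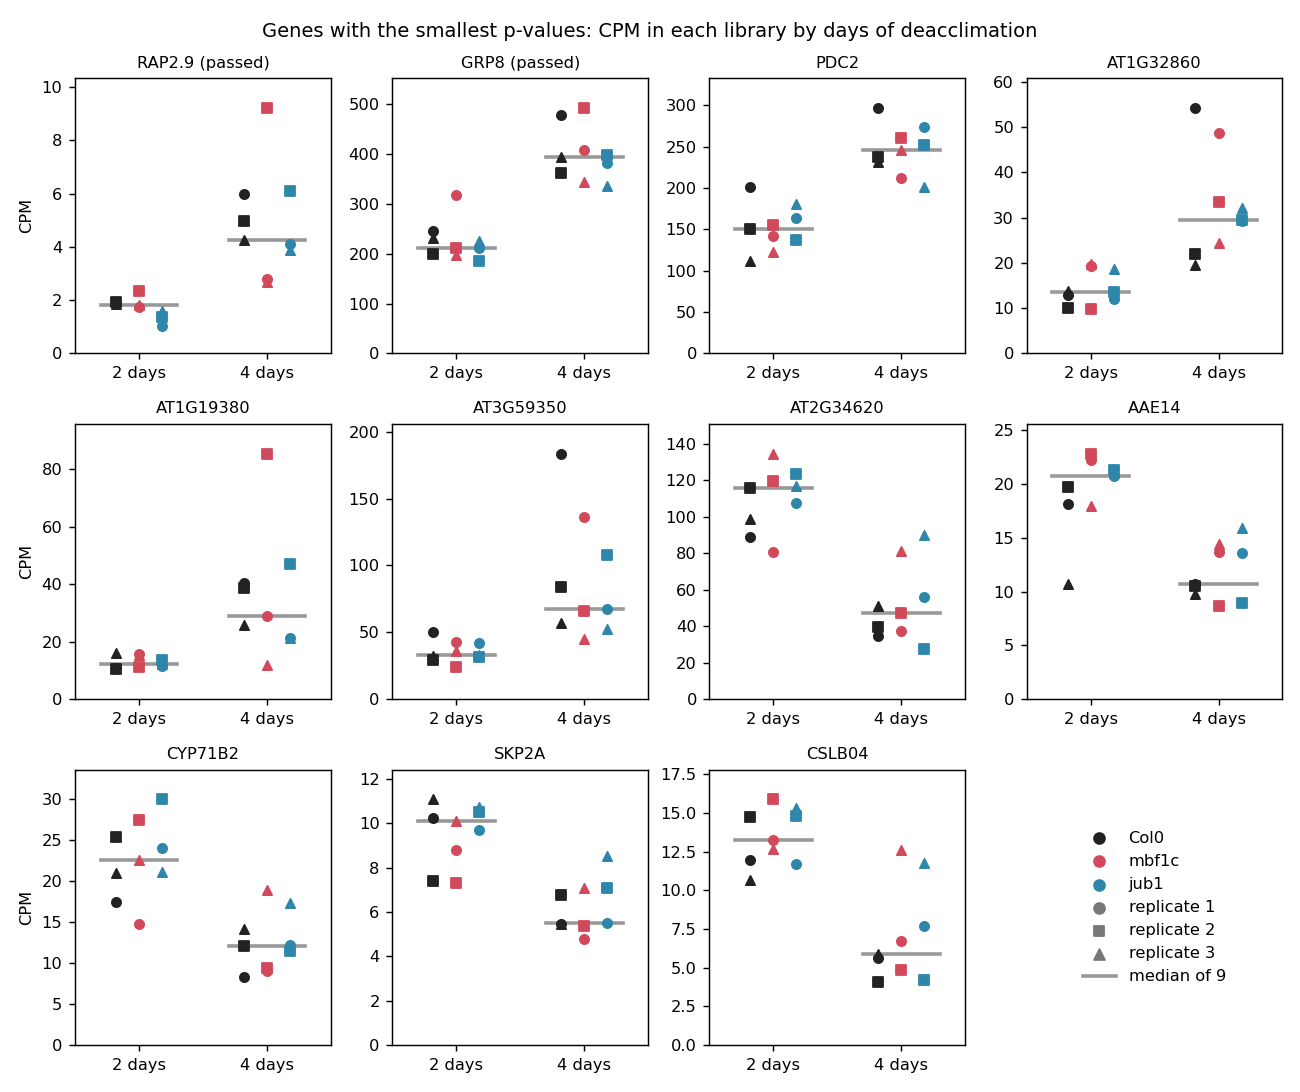
CPM after TMM scaling (y axis, linear from 0) of 11 genes in each of the 18 libraries at 2 and 4 days of deacclimation (x axis); colours are lines, marker shapes replicate numbers and grey bars the median of 9 libraries. RAP2.9 and GRP8, the only 2 of these genes past the adjusted threshold with edgeR, show no overlap between the times, and the other 9 overlap in at least 1 library.

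Both calls were narrow. Leaving out single libraries, RAP2.9 and GRP8 each stayed under the threshold in 9 of 18 refits, with adjusted p from 0.00628 to 0.0876 for RAP2.9 and from 0.00426 to 0.0876 for GRP8, and both lost the call when replicate 1 or replicate 2 was left out of all groups (adjusted p 0.725 and 0.334 for RAP2.9, 0.611 and 0.435 for GRP8). Without replicate 3 RAP2.9 kept it (adjusted p 0.0481) and GRP8 lost it (0.0502). Both lost it with the first strand column (adjusted p 0.0626 each), and RAP2.9 lost it with all 36 libraries in the fit (0.0566). The direction was the same in all 18 refits and in all 16 other settings for both genes.

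Complete separation of the 18 libraries was rare: 5 genes (0.0251% of those tested) had every library at 4 days above every library at 2 days, and 2 genes (0.01%) had every one below. Beside RAP2.9 and GRP8 the first group held SLAH2, a relative of the guard cell anion channel SLAC1, at 1.95 to 3.07 CPM and then 3.64 to 7.52 CPM (0.91 ± 0.15, edgeR adjusted p = 0.0732). It also held AT4G26480 with 39.5 to 56.5 CPM against 60.1 to 104 CPM and AT5G39410 with 33.5 to 45.5 CPM against 45.9 to 63.5 CPM, neither of which passed. Entirely lower at 4 days were CLA1, which encodes deoxyxylulose phosphate synthase of the plastid isoprenoid pathway, at 489 to 652 CPM and then 315 to 477 CPM (-0.54 ± 0.11, edgeR adjusted p = 0.122), and RR3, a response regulator of cytokinin signalling, at 6.88 to 10.3 CPM and then 2.39 to 6.70 CPM (-0.61 ± 0.17, adjusted p = 0.267). These 7 genes were picked by their values, so their separation is a description.

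Named next are genes with the smallest p-values in each direction at a mean of at least 5 CPM and the same sign in all 3 lines. None of them passed with edgeR, and the following gives their values only. DESeq2 called each of them, with DESeq2 adjusted p from 7.6e-05 to 0.0024. Some genes outside this rule, such as AT1G13650, had smaller p-values than several of them. PDC2 encodes a pyruvate decarboxylase, the enzyme that leads pyruvate into ethanol fermentation. It stood at 112 to 202 CPM at 2 days (median 150.3) and at 201 to 297 CPM at 4 days (median 246). Of the 9 libraries at 4 days, 8 were above all libraries at 2 days, and the change was 0.70 ± 0.13 (log2, SE; edgeR adjusted p = 0.0754), with 0.72, 0.77 and 0.59 in Col0, mbf1c and jub1. Its level at 4 days was also above the means of 120 CPM before cold and 111 CPM at the end of the cold. AT1G32860, annotated as a glycosyl hydrolase, had 9.87 to 19.6 CPM at 2 days and 19.4 to 54.2 CPM at 4 days (1.18 ± 0.21, adjusted p = 0.0754). AT3G59350, annotated as a protein kinase, had 24.3 to 50.3 CPM and then 44.8 to 184 CPM (1.29 ± 0.25, adjusted p = 0.0824), above its means of 23.1 CPM before cold and 23.8 CPM at the end of it. AT1G19380, a protein of unknown function, had 10.45 to 16.1 CPM and then 11.9 to 85.5 CPM (1.44 ± 0.28, adjusted p = 0.0824), with replicate 3 of mbf1c inside the 2-day range.

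On the lower side AT2G34620, annotated as a member of the mTERF family of organellar transcription factors, stood at 80.5 to 135 CPM at 2 days (median 116) and at 27.3 to 90.07 CPM at 4 days (median 47.0). The 2 libraries at 4 days that reached into the 2-day range were replicate 3 of mbf1c and replicate 3 of jub1. The change was -1.10 ± 0.20 (log2, SE; edgeR adjusted p = 0.0754), from a level close to the 104 CPM before cold, and the mean at the end of the cold was 11.02 CPM. AAE14, a ligase of phylloquinone synthesis, had 10.7 to 22.8 CPM and then 8.69 to 15.9 CPM (-0.71 ± 0.14, adjusted p = 0.0892). CYP71B2, a cytochrome P450, had 14.7 to 29.9 CPM and then 8.27 to 18.9 CPM (-0.85 ± 0.17, adjusted p = 0.0974). SKP2A, an F-box protein that acts on cell cycle regulators, had 7.32 to 11.1 CPM and then 4.76 to 8.52 CPM (-0.62 ± 0.13, adjusted p = 0.104). CSLB04, a cellulose synthase-like protein, had 10.7 to 15.9 CPM and then 4.09 to 12.6 CPM (-0.96 ± 0.20, adjusted p = 0.107). The rule by which these genes were named required the same sign in all 3 lines.

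**Figure D2:**
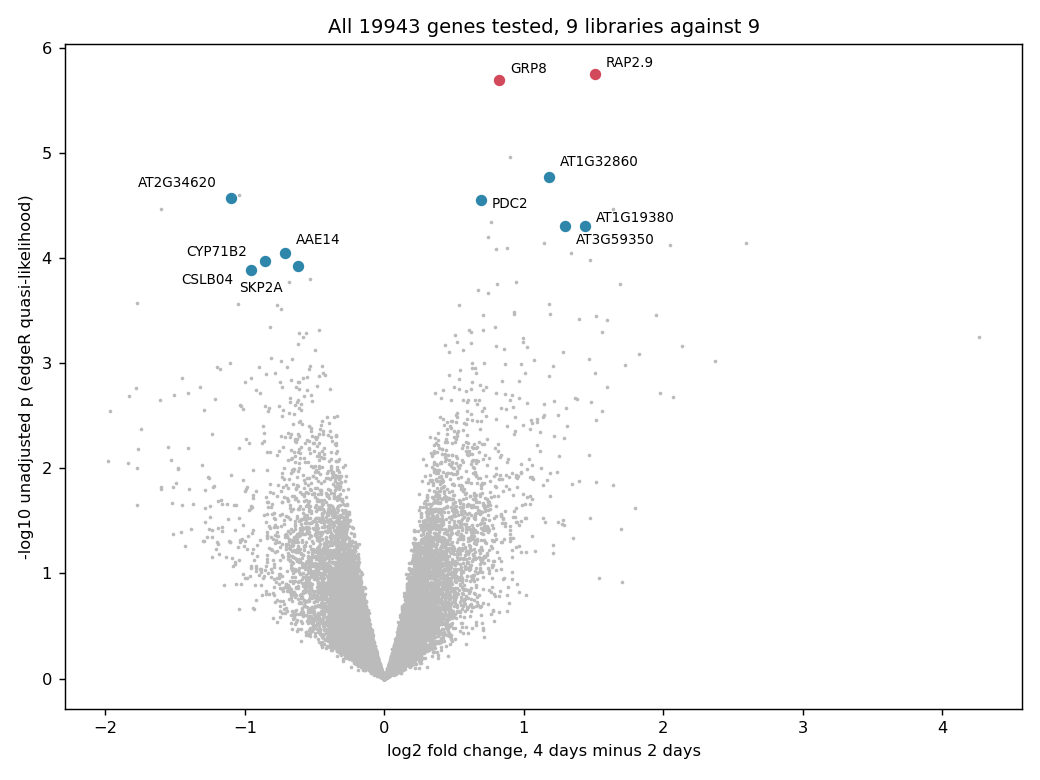
Fitted log2 change from 2 to 4 days (x axis, positive where 4 days was higher) against -log10 of the unadjusted p from edgeR (y axis) for the 19943 genes tested. Red points are RAP2.9 and GRP8, blue points the 9 named genes with the next smallest p-values at a mean of at least 5 CPM, and grey points all other genes; most genes lie within 1 log2 unit of zero.

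The size of the difference can be bounded for most genes, within a fit that takes the libraries as independent. Like the p-values, these intervals may reflect technical spread only. The 95% interval of the change lay within 2-fold in either direction for 17031 genes, 85.4% of those tested, and within 1.5-fold for 9484 genes (47.6%). The median SE was 0.202 log2 units and the median absolute fitted change 0.155. A fitted change of at least 2-fold was found for 204 genes, 101 higher and 103 lower.

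In the gene lists by pathway no member passed the adjusted threshold with edgeR in the fit of line and time. Over all genes tested, 48.0% had a fitted change above zero. Of the same genes, 4.68% were higher and 4.23% lower at an unadjusted p under 0.05. The values of list members are given without a call, and the members were chosen for naming after their values were seen, by the smallest p in each list first. The cold regulon list holds 26 genes of the CBF pathway and its targets, all tested, of which 20 had a fitted change above zero (76.9%). At an unadjusted p under 0.05, 9 were higher at 4 days and none lower (34.6% of the list and 0%, beside 4.68% and 4.23% of all genes), and the median change was 0.49 beside -0.011 over all genes. DESeq2 called 1 of them, COR47.

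COR47, a dehydrin that protects membranes and proteins in dry or cold cells, stood at 182 to 436 CPM at 2 days (median 275) and at 309 to 606 CPM at 4 days (median 459.6). At 4 days 5 of 9 libraries were above the whole 2-day range. The change was 0.72 ± 0.18 (log2, SE; edgeR adjusted p = 0.239), and the mean of 456 CPM at 4 days stood beside 171 CPM before cold and 398 CPM at the end of the cold. COR78, a protective protein and standard reporter of the CBF pathway, had 90.8 to 263 CPM at 2 days (median 146) and up to 826 CPM at 4 days (median 329), where the libraries lay on both sides of the 2-day range (1.116 ± 0.37, adjusted p = 0.385); its mean in the cold was 1607 CPM. COR27, a cold-induced gene that the clock also controls, had 1.23 to 43.9 CPM (median 18.8) and then 23.58 to 81.9 CPM (median 48.9), with a change of 1.40 ± 0.51 and an adjusted p of 0.438. AT4G33980, also known as COR28 and paired with COR27 in its function, had 1.01 to 11.2 CPM and then 7.38 to 18.9 CPM (1.24 ± 0.37, adjusted p = 0.313). The dehydrins ERD10 and LTI30 had 0.50 ± 0.19 and 0.73 ± 0.29, and the chloroplast envelope protein COR413IM1 had 0.57 ± 0.25, with adjusted p from 0.482 to 0.526.

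These changes were uneven. The median of the cold list was 0.60 in Col0, 0.075 in mbf1c and 0.65 in jub1, and by replicate number it was 0.31 for replicates 1, 1.03 for replicates 2 and -0.046 for replicates 3. COR27 had changes of 0.91, 4.103 and 1.04 by replicate number, and COR78 had 1.29, 0.012 and 1.41. With each of the 18 libraries left out in turn, 7 to 12 members were higher at an unadjusted p under 0.05, and the median ran from 0.32 to 0.71.

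Cell division genes lay on the other side of zero. All 28 members of the cell cycle list were tested and none had a fitted change above zero (0%, beside 48.0% of all genes). Within Col0, mbf1c and jub1, 3, 4 and 3 members had a change above zero. Over the 3 lines 8 were lower at an unadjusted p under 0.05 (28.6%), the median was -0.37, and none passed with edgeR or DESeq2. In RNA from whole rosettes, fewer dividing cells and less RNA of these genes per cell cannot be told apart. KNOLLE, the syntaxin that fuses vesicles into the cell plate, stood at 5.53 to 9.77 CPM at 2 days and at 1.85 to 8.16 CPM at 4 days, with 7 of 9 libraries under the whole 2-day range (-0.68 ± 0.20, edgeR adjusted p = 0.307). Its means were 9.89 CPM before cold, 8.89 CPM at the end of the cold, 7.59 CPM at 2 days and 4.78 CPM at 4 days, and part of its exonic bases overlaps a gene on the opposite strand that these counts cannot separate. CDC20.1, an activator of the anaphase-promoting complex, had 4.16 to 7.80 CPM and then 2.27 to 6.65 CPM (-0.55 ± 0.19, adjusted p = 0.404). The mitotic kinases CDKB2;1 and CDKB2;2 had -0.46 ± 0.19 and -0.52 ± 0.18, the mitotic cyclin CYCB1;2 had -0.54 ± 0.22 and the Aurora kinase AUR1 had -0.54 ± 0.25. The list's median was -0.60 in Col0, -0.22 in mbf1c and -0.40 in jub1, and -0.28, -0.57 and -0.26 by replicate number. With single libraries left out, 5 to 12 members were lower at an unadjusted p under 0.05 and the median ran from -0.45 to -0.30.

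Among the 30 clock genes, 3 were higher and 8 lower at an unadjusted p under 0.05 (10.0% and 26.7%), the median was -0.043, and none passed with edgeR or DESeq2. CCA1, a MYB repressor that peaks at dawn, stood at 3.53 to 14.7 CPM at 2 days (median 5.10) and at 2.123 to 5.44 CPM at 4 days (median 2.98). Its change was -0.92 ± 0.25 (log2, SE; edgeR adjusted p = 0.267), with -0.91, -0.88 and -0.97 in Col0, mbf1c and jub1 but -0.73, -1.46 and -0.29 for replicates 1, 2 and 3 alone, and -0.47 without replicate 2. Its partner LHY had -0.77 ± 0.37, the related morning factors RVE8 and RVE1 had -0.65 ± 0.23 and -0.68 ± 0.29, the coactivators LNK1 and LNK2 had -0.42 ± 0.16 and -0.58 ± 0.21, and CDF1 and CDF2, which repress CONSTANS in the morning, had -0.61 ± 0.18 and -0.60 ± 0.27. The 3 higher genes belong to the afternoon and evening: FKF1, a blue light receptor, had 11.3 to 40.3 CPM and then 16.4 to 57.2 CPM (0.88 ± 0.27, adjusted p = 0.333), while PRR5 had 0.53 ± 0.20 and ELF4 of the evening complex 0.90 ± 0.40. CCA1 had means of 4.69 CPM before cold and 85.1 CPM at the end of the cold. No source used here gives the hour of harvest, so another hour and another level cannot be told apart. With single libraries left out the list had 2 to 4 higher and 5 to 8 lower members at an unadjusted p under 0.05 and a median of -0.11 to 0.022.

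FT, the mobile flowering signal that FKF1 and CONSTANS promote in long days, stood at 0.358 to 1.21 CPM at 2 days and at 0.707 to 2.80 CPM at 4 days, with 6 of 9 libraries above the 2-day range (1.03 ± 0.29, edgeR adjusted p = 0.283) and a mean of 1.43 CPM before cold. FD, its partner at the shoot apex, had 0.76 ± 0.28. Of the 32 flowering genes 26 passed the filter on low counts. Of these, 3 were higher (11.54%) and 1 lower (3.85%) at an unadjusted p under 0.05, beside 4.68% and 4.23% of all genes. The list's median was 0.042, and none passed the threshold with edgeR or DESeq2.

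**Figure D3:**
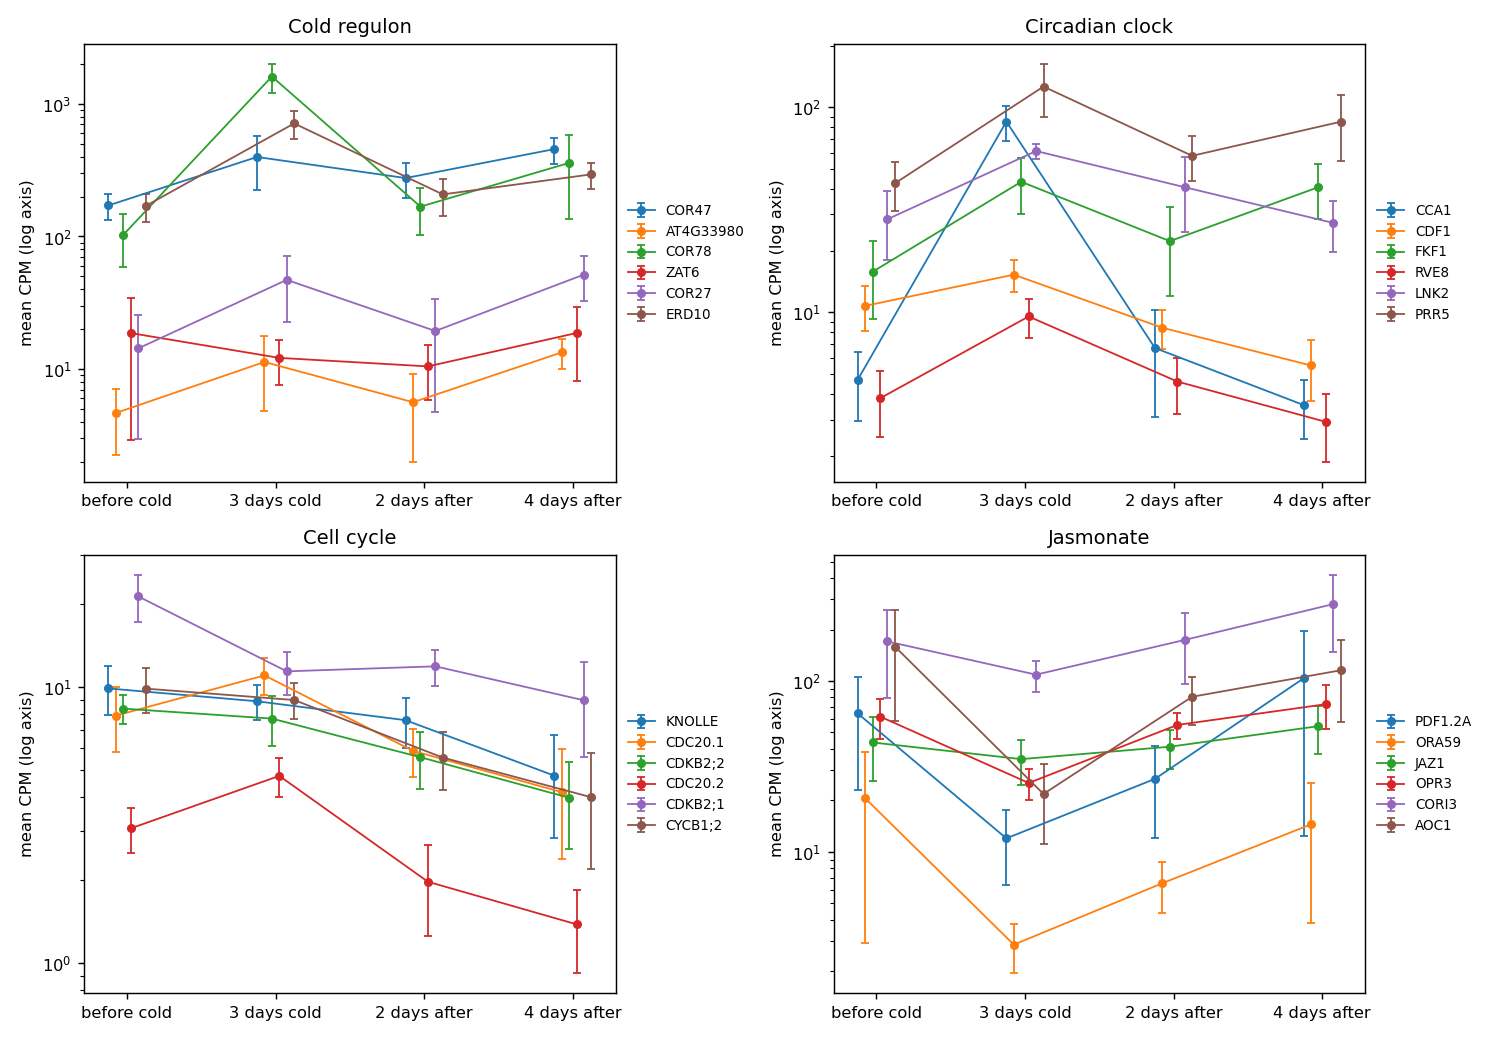
Mean CPM with SD over 9 libraries (log y axis) before cold, at the end of 3 days of cold and after 2 and 4 days of deacclimation (x axis), for the 6 members with the smallest p in each of 4 gene lists. COR47, COR78 and COR27 had higher means at 4 than at 2 days and KNOLLE and CCA1 lower ones, and the distance between those 2 stages was small beside that between cold and warm for COR78 and CCA1.

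In the list of jasmonate genes, a hormone of wound and necrotroph responses, 26 of 30 tested members had a fitted change above zero (86.7%, beside 48.0% of all genes). At an unadjusted p under 0.05, 5 were higher (16.7%) and none lower, with a median of 0.25; DESeq2 called 1, PDF1.2A. This plant defensin stood at 14.97 to 63.2 CPM at 2 days (median 21.9) and at 12.1 to 283 CPM at 4 days (median 63.9), so 1 library at 4 days was below the 2-day range and 5 above it (1.95 ± 0.45, edgeR adjusted p = 0.164). ORA59, a transcription factor that activates it, had 4.00 to 10.98 CPM and then 3.80 to 40.2 CPM (1.15 ± 0.34, adjusted p = 0.313). The repressor JAZ1 had 0.42 ± 0.15, the biosynthetic reductase OPR3 0.39 ± 0.16 and CORI3 0.71 ± 0.30. OPR1, a reductase outside the list, had 27.7 to 57.6 CPM and then 51.3 to 127 CPM (1.15 ± 0.23, adjusted p = 0.0892), and shares 216 bases of its transcript with the gene beside it. By replicate number PDF1.2A had 1.22, 2.76 and 0.69, and ORA59 0.66, 2.15 and 0.0025. With single libraries left out the list had 3 to 8 higher and 0 to 1 lower members at an unadjusted p under 0.05 and a median of 0.16 to 0.36.

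In the list of salicylate genes, a hormone of defence against biotrophs, 8 of 31 had a fitted change above zero (25.8%, beside 48.0% of all genes) and the median was -0.36. At an unadjusted p under 0.05, 1 was higher (3.23%) and 3 lower (9.68%), and DESeq2 called 1, AZI1. ICS1, the isochorismate synthase that makes most of the hormone, stood at 14.3 to 138 CPM at 2 days (median 79.6) and at 11.3 to 79.3 CPM at 4 days (median 38.1), with -1.01 ± 0.37 and an edgeR adjusted p of 0.437. The groups overlapped in all but 1 of the 4-day libraries, and the mean of 82.8 CPM at 2 days was the highest of the 4 stages, beside 23.8 CPM before cold, 14.9 CPM at the end of the cold and 40.7 CPM at 4 days. PBS3, the next enzyme of that pathway, had -1.23 ± 0.46. FMO1, which makes N-hydroxypipecolic acid for systemic resistance, had 0.599 to 21.1 CPM and then 0.0471 to 6.11 CPM (-1.75 ± 0.54, adjusted p = 0.344). Its lowest value at 4 days was under the level of 3 counts, at least 0.0543 CPM, and could not be told from 0. AZI1, a lipid transfer protein of systemic priming, lay on the other side, at 33.1 to 74.9 CPM and then 45.7 to 237 CPM (1.18 ± 0.26, adjusted p = 0.157), after a mean of 1249 CPM at the end of the cold. The list's median was -0.66 in Col0, 0.0055 in mbf1c and -0.50 in jub1. With single libraries left out the list had 1 to 2 higher and 1 to 9 lower members at an unadjusted p under 0.05 and a median of -0.53 to -0.19. The lowest of these medians belonged to the removal of replicate 2 of mbf1c at 4 days.

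Of 30 tested abscisic acid genes, 5 were higher and 5 lower at an unadjusted p under 0.05 (16.7% each), with a median of -0.15, and DESeq2 called PYL5 and PYL6 higher and HAB1 lower. The receptors PYL6, PYL5, PYL4 and PYR1 had 1.60 ± 0.44, 1.303 ± 0.38, 0.92 ± 0.33 and 0.60 ± 0.17, with edgeR adjusted p from 0.267 to 0.427, and the hydroxylase CYP707A3, which breaks the hormone down, had 0.69 ± 0.28. PYL6 ranged from 2.35 to 6.55 CPM at 2 days and from 1.83 to 40.1 CPM at 4 days. HAB1, a phosphatase that represses the pathway, stood at 9.96 to 17.7 CPM and then 4.93 to 11.4 CPM, with 7 of 9 libraries under the 2-day range (-0.74 ± 0.17, adjusted p = 0.164). The phosphatase HAI1 had -0.84 ± 0.39, the transcription factors HB7 and HB12 had -0.60 ± 0.26 and -0.47 ± 0.20, and the biosynthetic gene ABA1 had -0.44 ± 0.18. Among replicates 3 alone, PYL4, PYL5 and PYL6 had changes of -0.10, -0.56 and -0.22, opposite in sign to the fit over all libraries. With single libraries left out the list had 4 to 7 higher and 2 to 7 lower members at an unadjusted p under 0.05 and a median of -0.22 to -0.041.

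Of the 32 genes of cell wall growth 23 had a fitted change above zero (71.9%, beside 48.0% of all genes). At an unadjusted p under 0.05, 7 were higher and 1 lower (21.9% and 3.12%), the median was 0.18, and DESeq2 called 1, XTH18. This xyloglucan-modifying enzyme stood at 2.27 to 4.69 CPM at 2 days and at 3.55 to 39.03 CPM at 4 days, with 5 of 9 libraries above the 2-day range (1.83 ± 0.46, edgeR adjusted p = 0.225). XTH4 of the same family had 461 to 949 CPM and then 533 to 1496 CPM (0.70 ± 0.20, adjusted p = 0.297), beside means of 647 CPM before cold and 201 CPM at the end of the cold. The expansin-like gene EXLA1 had 1.06 ± 0.41, and XTH31 was the member on the lower side with -1.03 ± 0.49. Among 26 light and auxin growth genes 22 were above zero (84.62%, beside 48.0% of all genes). At an unadjusted p under 0.05, 3 were higher (11.54%) and none lower, beside 4.68% and 4.23% of all genes. The median was 0.22, and in mbf1c it was -0.12. The auxin biosynthesis gene YUC8 of this list had 0.56 ± 0.21. Among 21 ribosome biogenesis genes 18 were above zero (85.7%), 3 were higher at an unadjusted p under 0.05 (14.3%) and none lower, with a median of 0.13. Neither list had a member past the threshold with DESeq2. XTH18 had 2.76, 1.22 and 0.31 by replicate number, and XTH4 0.93, 1.15 and -0.11. For the cell wall list single libraries left out gave 4 to 8 higher and 0 to 1 lower members at an unadjusted p under 0.05 and a median of 0.12 to 0.23, for light and auxin growth 2 to 7 higher and 0 to 1 lower members at an unadjusted p under 0.05 and a median of 0.19 to 0.33, and for ribosome biogenesis 2 to 4 higher and no lower members at an unadjusted p under 0.05 and a median of 0.084 to 0.22.

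Photosynthesis genes had small fitted changes. Of 32 members 31 had a 95% interval within 2-fold (96.9%, beside 85.4% of all genes) and 8 were above zero (25%, beside 48.0%). The median was -0.13, and none passed with edgeR or DESeq2. For replicates 1, 2 and 3 alone the median was 0.023, -0.25 and -0.027. Single libraries left out gave no higher and 0 to 2 lower members at an unadjusted p under 0.05 and a median of -0.22 to -0.037. PRK, the phosphoribulokinase of the Calvin cycle, was the 1 member with an unadjusted p under 0.05, at 995 to 2104 CPM and then 887 to 1847 CPM (-0.39 ± 0.17, edgeR adjusted p = 0.528). As a check of the tissue, the leaf genes RBCS1A, LHCB6, RCA and GAPB had medians of 34448, 5166, 3693 and 2291 CPM at 2 days and 28015, 4627, 4076 and 2225 CPM at 4 days. Summed markers of other tissues overlapped between the times, with 1.05 to 2.51 CPM at 2 days and 0.777 to 2.92 CPM at 4 days for 8 floral genes, and 25.3 to 58.6 CPM and 16.5 to 71.7 CPM for 4 root genes. For 5 secondary wall genes of stems the sums were 5.16 to 13.2 CPM and 5.17 to 15.4 CPM, with 1 gene at 0 in all libraries at 2 days. For 3 seed and pollen genes they were at most 0.174 CPM, with 1 gene at 0 throughout at 2 days and 2 at 4 days. The part of these tissues in the results was not tested.

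Smaller lists held single genes with wide changes. SAG12, a cysteine protease of senescing leaves, stood at 0.318 to 16.0 CPM at 2 days and at 0.417 to 42.5 CPM at 4 days (1.80 ± 0.73, edgeR adjusted p = 0.502), and the ribonuclease RNS1 had 1.38 ± 0.39, while NYE1, which starts chlorophyll breakdown, had -0.47 ± 0.15. Over the 17 senescence genes 2 were higher and 1 lower at an unadjusted p under 0.05 (11.8% and 5.88%). The nitrate transporter NRT2.1 had 1.33 to 2.78 CPM and then 2.61 to 4.63 CPM, with 7 of 9 libraries above the 2-day range (0.81 ± 0.17, adjusted p = 0.122). In proline metabolism PDH1, which breaks proline down, had 0.83 ± 0.28, and P5CS1, which makes it, had -0.85 ± 0.37, with medians of 189.9 and then 74.2 CPM. DRM2, a dormancy-associated gene that sugar represses, had 151 to 667 CPM and then 297 to 1215 CPM (0.98 ± 0.34, adjusted p = 0.412). Its change was 0.40, 2.40 and 0.21 by replicate number and 0.30 without replicate 2, and in mbf1c replicates 1 and 3 were lower at 4 days (667 and then 301 CPM, 584 and then 297 CPM). SAG12 had -0.35, 2.76 and 1.75 by replicate number, and P5CS1 -1.32, -2.18 and 0.091. The ferric reductase FRO6 had -0.52 ± 0.20 and the nicotianamine synthase NAS4 -0.63 ± 0.23. Of 24 tested hypoxia genes 2, PDC2 among them, were higher and 3 lower at an unadjusted p under 0.05 (8.33% and 12.5%), with a median of -0.11. Of 20 tested heat shock genes 3 were higher (15%) and none lower at an unadjusted p under 0.05, with a median of 0.13. Over all genes tested these shares were 4.68% higher and 4.23% lower.

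**Figure D4:**
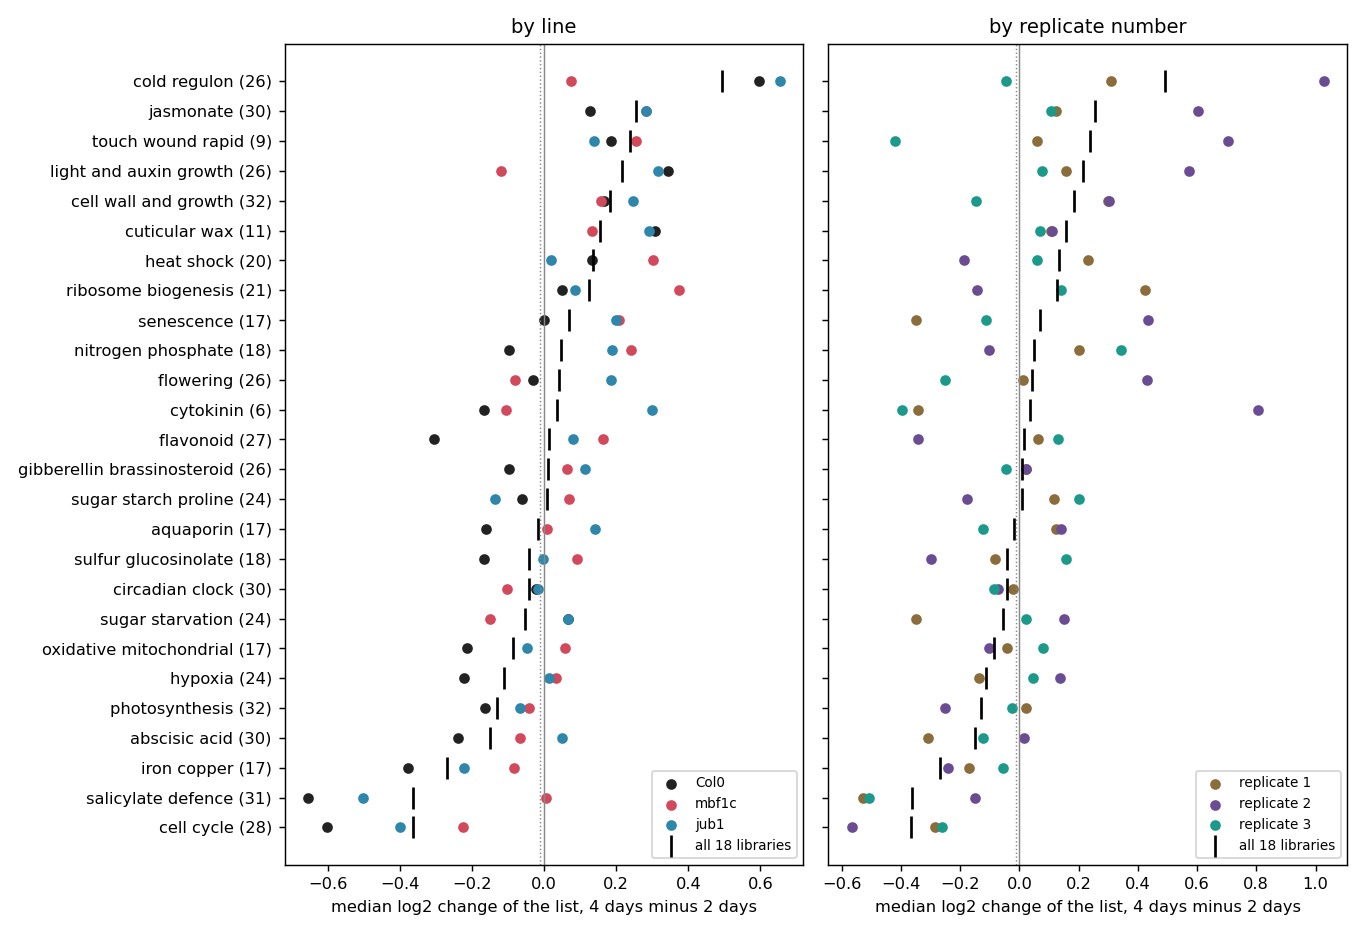
Median log2 change from 2 to 4 days (x axis) of each gene list, with the number of members tested in brackets (y axis); black ticks are the fit to all 18 libraries, coloured points the single lines (left) or single replicate numbers (right), the solid line is zero and the dotted line the median of all genes. The cold regulon lies at 0.49 and the cell cycle at -0.37, and the cold regulon runs from -0.046 to 1.03 between replicate numbers.

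Against the plants before cold, both times stood at a like distance. The median absolute log2 difference from NonA was 0.402 at Deacc2 and 0.394 at Deacc4, beside 0.759 for the end of the cold, and that between Deacc2 and Deacc4 was 0.158. Of the 19943 genes, 52.8% were nearer to NonA at 4 days than at 2 days. The share was 57.1% of the 3546 genes at least 2-fold higher in the cold and 54.9% of the 3912 genes at least 2-fold lower in it. Among genes with an unadjusted p under 0.05 it was 42.2% of those higher at 4 days and 43.1% of those lower, a description only, since the same libraries chose those genes. PDC2, COR47 and SAG12 were among the genes whose mean at 2 days was the nearer to NonA.

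Within single lines, with 3 libraries against 3, edgeR called no gene. At an unadjusted p under 0.05, 245 genes were higher (1.23%) and 344 lower (1.72%) in Col0, 180 higher (0.903%) and 133 lower (0.667%) in mbf1c, and 139 higher (0.697%) and 120 lower (0.602%) in jub1. DESeq2 called ATMG01380 higher and AT2G34190 lower in Col0 and no gene in mbf1c or jub1. The test of whether the change differed from that of Col0 called no gene with edgeR or DESeq2 for either mutant line. At an unadjusted p under 0.05 the change was more positive in mbf1c for 57 genes (0.286%) and less for 41 (0.206%), and more positive in jub1 for 51 (0.256%) and less for 17 (0.0852%). The median SE was 0.363 to 0.366 log2 units within a line and 0.515 for a difference between lines. Across the 13129 genes whose mean reached 5 CPM, Spearman's rho between the fitted changes was 0.388 for Col0 and mbf1c, 0.352 for Col0 and jub1 and 0.477 for mbf1c and jub1, a description over genes that share their libraries.

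The genes after which the mutant lines are named were compared with the labels. MBF1C stood at 0.778 ± 0.300 CPM (SD, n = 3) at 2 days and 0.937 ± 0.120 CPM at 4 days in mbf1c, beside 4.14 ± 1.39 and 3.75 ± 1.16 CPM in Col0 and 3.86 ± 0.358 and 4.195 ± 1.44 CPM in jub1. JUB1 stood at 1.14 ± 0.211 CPM at 2 days and 1.08 ± 0.485 CPM at 4 days in jub1, beside 8.45 ± 2.26 and 5.68 ± 2.79 CPM in Col0 and 6.31 ± 4.74 and 5.11 ± 3.77 CPM in mbf1c. All 6 mbf1c libraries were under all other libraries for MBF1C, at 0.488 to 1.09 CPM against 2.48 to 5.80 CPM. For JUB1 the lines overlapped: the jub1 libraries held 0.536 to 1.48 CPM, while replicate 1 of mbf1c held 1.83 CPM at 2 days and 0.754 CPM at 4 days, beside 5.82 to 11.3 CPM in the other mbf1c libraries. These 2 libraries also stood apart on the second principal component, at -71.0 and -78.8 with the other 16 at -31.0 or above. Over the 3 lines edgeR called 3 genes without the first of them and 2 without the second. Between the times MBF1C had 0.049 ± 0.19 over the 3 lines (95% interval -0.35 to 0.45) and JUB1 -0.32 ± 0.37 (-1.10 to 0.47). Part of the exonic bases of each lies opposite another gene, and the counts used no strand.

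The change from 2 to 4 days differed between replicate numbers. Across the same genes, Spearman's rho between changes was 0.018 for replicates 1 and 2, 0.344 for replicates 1 and 3, and -0.638 for replicates 2 and 3, of which 25.4% of genes had the same sign. In mbf1c and Col0, libraries numbered 2 at 2 days correlated best with those numbered 3 at 4 days, and those numbered 3 with those numbered 2. All changes given by replicate number take the numbers as they stand. A trend with transcript length moved with the difference between replicate numbers. The slope of a library's log2 deviation on log2 exonic length averaged 0.362 ± 0.170 (SD, n = 3) at 2 days and -0.206 ± 0.422 at 4 days for replicates 2, and -0.231 ± 0.162 and 0.030 ± 0.340 for replicates 3. With the trend taken out of the changes, rho between replicates 2 and 3 was -0.405 over 13115 genes. The change over all 18 libraries also carried a length trend. Spearman's rho between that change and exonic length was -0.243 over 19833 genes, so shorter transcripts tended to be fitted higher at 4 days. Over all 18 libraries the slopes of the times overlapped, from -0.331 to 0.492 at 2 days and from -0.690 to 0.332 at 4 days, and the lowest belonged to replicate 2 of mbf1c at 4 days. Without that library edgeR called 4 genes in place of 2. With the length trend of each library as an offset, edgeR called 19 genes higher and 11 lower, RAP2.9 (adjusted p = 0.0278) and GRP8 (adjusted p = 0.0282) among them. With that offset the list medians were 0.47 for the cold regulon, -0.35 for the cell cycle and 0.0033 for the clock. With the replicate block added, edgeR called 128 of all 19943 genes higher and 78 lower. Beside these, it called 3 of 26 cold regulon genes and 2 of 32 cell wall growth genes higher. Lower were 2 of 28 cell cycle genes. It called 2 of 30 clock genes in each direction and at most 1 member in a direction in any other list. There CCA1 had an edgeR adjusted p of 0.00756. The cause of the length trend was not tested.

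**Figure D5:**
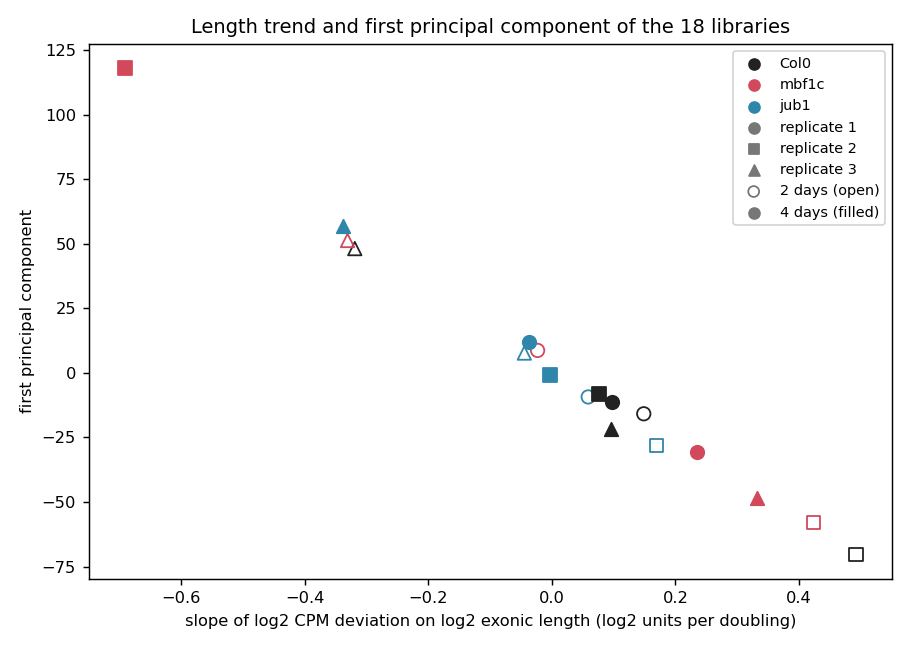
First principal component of log2 CPM (y axis) against the slope of each library's deviation from the gene mean on log2 exonic length (x axis, log2 units per doubling of length) for the 18 libraries; colours are lines, shapes replicate numbers, open points 2 days and filled points 4 days. Both times spread along the same diagonal, which holds 36.6% of the variance, and replicate 2 of mbf1c at 4 days lies at its end.

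The 18 libraries held 18549984 to 55232873 counts in genes each, from 88.7% to 90.8% of their reads, and 21324 to 23173 genes with a count. A total of 3 counts equalled 0.0543 to 0.162 CPM, under which a level could not be told from 0 at this depth, counting error only.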

How the data were processed

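RNA of whole rosettes was sequenced on the BGISEQ-500, per the labels' protocols. Per the submitters' processing notes, which name STAR 2.6.0c, TAIR10 and DESeq2 without their roles, and per the layout of the files, the deposited values are raw counts of reads per gene from the authors' alignment. The unstranded column was used and the summary lines were left out, which held 0.399% to 0.907% unmapped, 3.36% to 5.05% multimapping, 0.286% to 0.522% no-feature and 4.34% to 5.86% ambiguous reads in the 18 libraries.

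From these counts, edgeR 4.0.16 (R 4.3.3) fitted line and time to the 18 libraries after its filter on low expression, which kept 19943 of 34262 genes, with TMM scaling and a robust quasi-likelihood test at a Benjamini-Hochberg adjusted p of 0.05. Changes within lines and their differences came from a model of the 6 groups. DESeq2 1.42.0, other scalings, filters, blocks and left-out libraries were alternatives. The fit was tested on simulated data. CPM are counts scaled to the TMM-adjusted library size, and p-values measure the spread between libraries. Gene sequences were searched for near-identical copies with BLAST 2.17.0 at 95% identity over 100 bases.

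The genes named first were those that passed, and where fewer than 5 passed in a direction, the 5 with the smallest p at a mean of at least 5 CPM and the same sign in all lines, then the member of each list with the smallest p, and MBF1C and JUB1. Other members were named after their values were seen. The libraries compared and all gene lists were chosen with earlier results of these data known.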

Additional observations from a re-analysis of the deposited data

Results flagged for a closer look

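In 82 sets of 9 libraries of 1 time, 4 had a single library far from the other 8, by the gap to its neighbour as a share of the whole range on log2 CPM, where a share above 0.493 is called and chance alone gives about 1 in 20. The 4 sets of 82 are near that rate, and each set holds libraries of 3 lines. AAE14 at 2 days was lowest in replicate 3 of Col0, at 10.7 CPM, with a gap to the next library that was a share of 0.685 of the range. AZI1 at 2 days was lowest in replicate 1 of jub1, at 33.1 CPM beside 54.0 CPM, a share of 0.599. APR3, a reductase of sulfate assimilation, was lowest at 2 days in replicate 1 of mbf1c, at 15.5 CPM beside 25.4 CPM, a share of 0.583. CAT2, the leaf catalase, was highest at 4 days in replicate 3 of mbf1c, at 516 CPM beside 336 CPM, a share of 0.5.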

How the results depend on the processing

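The pooled count of 2 genes moved with most treatments of the libraries. It was 2 with RLE scaling and without organellar genes, 3 without the filter, 10 with all 36 libraries in the fit, 144 with DESeq2, 30 with the length trend as an offset and 0 with the first strand column. In the 18 libraries that column held 50.4% to 51.2% of the counts of both strand columns. That setting therefore used only part of the reads and did not single out a strand. Replicate numbers, Exp1 to Exp3 in the titles, were not taken to pair the libraries, since no label says what a number shares and not every pair correlated: 5 of 9 same-numbered pairs had deviations correlated above 0.1 (r from -0.616 to 0.633, with 0.396 to 0.476 for the 3 pairs numbered 1 and 0.409 to 0.633 for the 3 pairs of jub1) and 5 of 9 libraries correlated best with their own number, also after the length trend was removed, a check added after seeing the data. Numbers 2 and 3 were crossed in 2 lines. In mbf1c, replicate 2 at 2 days correlated with replicate 3 at 4 days at 0.780, and replicate 3 with replicate 2 at 0.740. The same numbers gave -0.538 and -0.616 there. In Col0 the crossed pairs had 0.207 and 0.205, beside -0.048 and -0.100 for the same numbers. What this reflects was not tested. With the replicate block the count was 37, with the replicate block within line 12, and with the length trend and the replicate block 206. Leaving out a replicate number or a single library gave 0 to 47 genes. It was 0 without replicate 1 or 2 of Col0, replicate 1 or 2 of jub1, or replicate 2 or 3 of mbf1c at 2 days, and without replicate 1 or 3 of Col0 or replicate 1 of jub1 at 4 days. It was 4 without replicate 2 of mbf1c or replicate 3 of jub1 at 4 days, and 47 without replicate 3 of mbf1c at 4 days. Replicates 1 alone gave 375 genes, and replicates 2 or 3 alone 0. Within Col0 the count was 2 with DESeq2 and 0 otherwise, and the other contrasts stayed at 0 in the alternatives run. Signs turned for MBF1C with the first strand column (-0.072), the length trend and replicate block (-0.0036), without replicate 2 (-0.25) and in replicates 1 alone (-0.56), and for CAT2 without replicate 2 (0.13) and in replicates 3 alone (0.27). In replicates 3 alone they also turned for PRK (0.088), CESA8 (0.12) and ERF11 (-0.15), and in replicates 2 alone for ARR9 (0.15) and AG (0.12). Leaving out 1 replicate number, MBF1C ran from -0.25 to 0.36 and CAT2 from -0.83 to 0.13. The cause was not tested. Of the other values of named genes, 554 kept direction and side of the threshold, 78 passed it anew and 13 no longer passed. Of the list medians, 92 moved by more than the SD of the medians of the 3 lines and 894 did not, most of the moves coming with 1 replicate number alone or left out. Lists with single libraries left out were added after seeing the data.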
